A study of Homo sapiens with 6 samples.

Results

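The genes described here are 10 components of the N6-methyladenosine (m6A) system of messenger RNA, the writers METTL3, METTL14 and WTAP, the erasers FTO and ALKBH5, and the readers YTHDF1, YTHDF2, YTHDF3, YTHDC1 and IGF2BP2. They were taken by gene symbol from a deposited table of 19923 genes, and all 10 were found there and had enough counts to be tested. RNA was sequenced from BT549, an established line of human breast cancer cells, as 3 libraries after treatment with something named only ENL and 3 control libraries. What ENL stands for is not spelled out, and the labels give neither its dose and duration nor what the control cells received. No genetic change is labelled in either group. Nothing labelled tells whether libraries of 1 group were grown as separate cultures, so the p-values reflect the spread of these libraries alone, and that spread may be technical.

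In the m6A system, METTL3 carries the methyltransferase activity, METTL14 pairs with it and helps to hold the RNA, and WTAP keeps the pair in nuclear speckles. FTO and ALKBH5 are oxygenases that remove methyl groups from RNA. YTHDF1, YTHDF2 and YTHDF3 are closely related cytoplasmic proteins that bind methylated RNA and act on its decay and translation, YTHDC1 is the nuclear reader that acts in splicing and export, and IGF2BP2 is a reader associated with the stability of its targets. Transcript levels say nothing direct about the methylation of RNA, which was not measured in these libraries.

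Library totals were 74457932 to 85310759 units of estimated count in ENL and 76387436 to 80964005 in control, and about 4 units may stand for 1 sequenced fragment. Among the treated libraries, ENL library 3 differed most, with a score of -32.6 on the second principal component against 9.75 and 18.5. Ribosomal protein genes took 10.9% to 13.4% of the units in ENL and 7.87% to 8.28% in control, and mitochondrially encoded genes 7.71% to 8.64% in ENL and 9.73% to 10.9% in control. The part of this difference in composition in the results below was tested only by leaving these genes out and by other scalings. Of the markers of the line, VIM was at 5370 to 6290 CPM (library-normalised counts on the CPM scale, scaled by the trimmed mean of M values, TMM) in ENL and 2480 to 3270 CPM in control, and AXL at 146 to 158 CPM in ENL and 140 to 147 CPM in control, whereas ESR1, CDH1 and EPCAM were below 1 CPM and PGR was at 0 in all 6 libraries. CD44 was at 170 to 201 CPM in ENL and 125 to 148 CPM in control, SPARC at 89.4 to 95.3 CPM in ENL and 326 to 336 CPM in control, and ERBB2 at 63.3 to 65.5 CPM in ENL and 74.3 to 81.2 CPM in control. Markers of other cells were at 1.2 CPM or below in every library (PTPRC, CD3E, PECAM1 and CDH5), except CD68, which was at 54 to 60.8 CPM in ENL and 55.1 to 68.3 CPM in control. CD68 shares 1789 exon bases with AC016876.2 on the same strand, which leaves its value uncertain.

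The windows before the RefSeq starts of 4 of the genes are shown. They belong to the catalytic pair METTL3 and METTL14, to ALKBH5, the 1 member that passed the test, and to YTHDC1, the member with the lowest log2 fold change. They come from RefSeq (build GRCh38.p14), are written 5′ to 3′ on the strand of the gene, and leave out bases that GENCODE 29 annotates as exons of the gene. Capitals mark matches to the ETS motif (CCGGAAG), the GC box (GGGCGG) and the cyclic AMP response element (TGACGTCA), searched on both strands. The METTL3 window is chr14:21511376-21511590 (minus strand, 215 bases), the METTL14 window chr4:118685142-118685367 (plus strand, 226 bases), the ALKBH5 window chr17:18183578-18183827 (plus strand, 250 bases) and the YTHDC1 window chr4:68350091-68350340 (minus strand, 250 bases). The ALKBH5 window lies inside the gene as GENCODE 29 places it, with a start at 18183078, and outside its annotated exons.
METTL3: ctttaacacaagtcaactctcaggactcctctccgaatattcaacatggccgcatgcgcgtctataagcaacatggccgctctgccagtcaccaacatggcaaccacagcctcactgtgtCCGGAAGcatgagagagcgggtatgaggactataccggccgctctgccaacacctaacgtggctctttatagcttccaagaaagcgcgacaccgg
METTL14: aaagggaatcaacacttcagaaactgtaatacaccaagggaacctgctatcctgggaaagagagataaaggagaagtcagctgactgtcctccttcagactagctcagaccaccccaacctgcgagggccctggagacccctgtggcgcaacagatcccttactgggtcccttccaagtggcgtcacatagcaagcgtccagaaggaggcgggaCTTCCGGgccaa
ALKBH5: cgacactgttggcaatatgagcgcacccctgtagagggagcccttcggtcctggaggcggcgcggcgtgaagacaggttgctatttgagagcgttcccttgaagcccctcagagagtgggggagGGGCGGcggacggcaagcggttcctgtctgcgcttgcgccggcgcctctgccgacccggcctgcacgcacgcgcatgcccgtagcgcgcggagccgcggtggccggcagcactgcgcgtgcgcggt
YTHDC1: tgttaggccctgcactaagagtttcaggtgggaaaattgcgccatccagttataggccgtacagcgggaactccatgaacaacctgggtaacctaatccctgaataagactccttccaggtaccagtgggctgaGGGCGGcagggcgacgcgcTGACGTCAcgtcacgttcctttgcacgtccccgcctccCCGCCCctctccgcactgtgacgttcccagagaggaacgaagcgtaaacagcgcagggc

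An ETS match was found in 2 of the 9 members with a window, METTL3 and METTL14. It was found in 8.82% of the 27305 RefSeq windows of 250 bases before a start. The cyclic AMP response element was found in 1 of the 9 members, YTHDC1, and in 1.77% of all windows. The GC box was found in ALKBH5 and YTHDC1 and in 6 of the 9 members with a window in the table, against 42.3% of all windows. The core of the hypoxia response element (ACGTG) was found in METTL3, YTHDF1 and YTHDC1 and in 18.7% of all windows, and overlaps the cyclic AMP response element in YTHDC1. Other motifs searched in the same way were the CCAAT box (CCAAT), found in METTL14 and WTAP and in 33% of all windows, and the NRF1 motif and an ATF4 core (TGATGCAA), found in 0 members and in 1.13% and 0.82% of all windows. A match is a description of the letters and not a site of binding, and YTHDF3 had no window in the table.

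The log2 fold changes of 9 of the 10 m6A genes were 0.39 or less in size between ENL-treated and control cells. This limit is the largest of the 9, and 45.8% of all genes tested lay within it. The difference of YTHDF3 was undetermined. In the quasi-likelihood test of edgeR, adjusted by Benjamini and Hochberg's method over 14086 genes, 0 of the 10 members were higher and 1 (ALKBH5) was lower in ENL with an adjusted p under 0.05, where 20% of all genes tested were higher and 18.4% lower. At an unadjusted p below 0.05, 1 member was higher (WTAP) and 3 were lower (METTL3, ALKBH5 and YTHDC1), beside 24.8% and 23.5% of all genes. The DESeq2 Wald test called 0 members higher and 2 lower (ALKBH5 and YTHDC1), beside 22.3% and 20.8% of all genes, so that the lower members were near the background in both. The median absolute log2 fold change was 0.21 over the 10 members and 0.43 over all genes, and the median log2 fold change was 0.06 and -0.02. For 8 of the 10 members the 95% interval of the fold change lay within 1.5-fold in either direction, which held for 27.5% of all genes. The exceptions were YTHDF3 and YTHDC1. All 10 members were above 10 CPM in every library, whereas 9551 genes reached 10 CPM in 3 libraries. The contrasts with all genes in size and interval were therefore not matched for level. The 3 ENL libraries lay wholly above or below the 3 control libraries for 5 members (METTL3, WTAP, ALKBH5, YTHDF2 and IGF2BP2), or 50%, near the 54% of all genes tested.

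**Figure D1:**
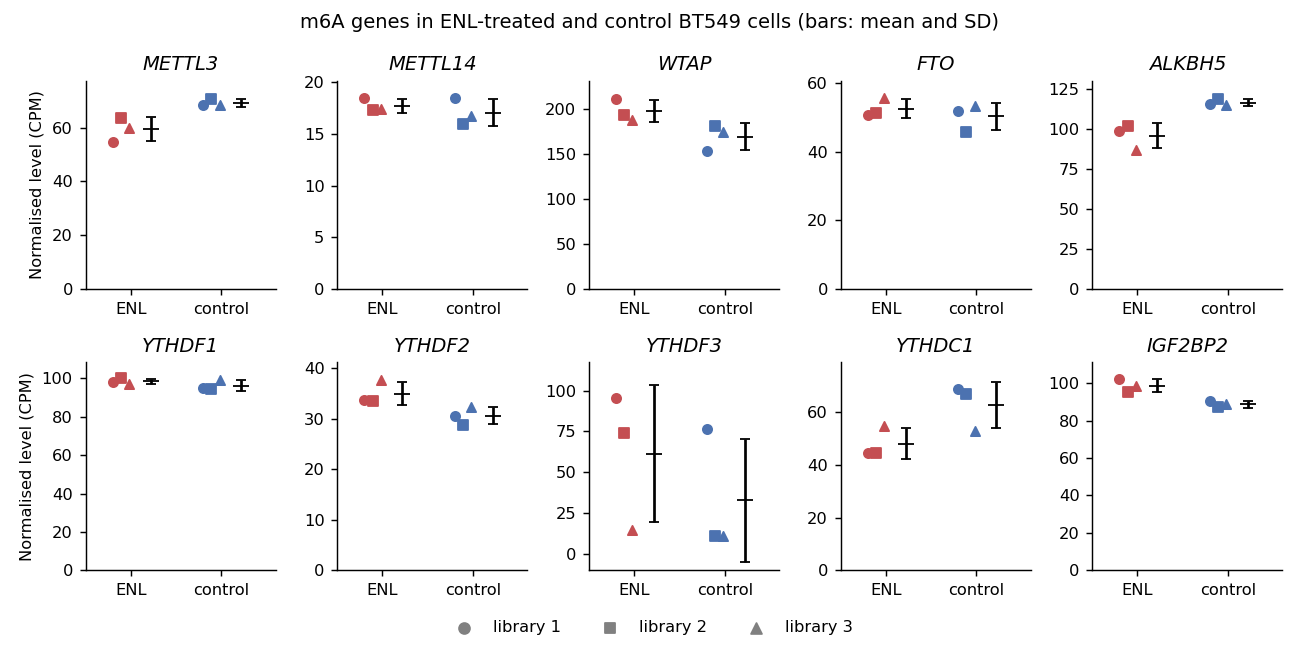
Normalised level (CPM, linear axis) of each of the 10 genes in the 3 ENL libraries (red) and 3 control libraries (blue), with the mean and SD as black bars and library numbers as marker shapes. ALKBH5 lay lower in all ENL libraries, YTHDF1 was nearly level between the groups, and YTHDF3 had high and low libraries in both groups.

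**Figure D2:**
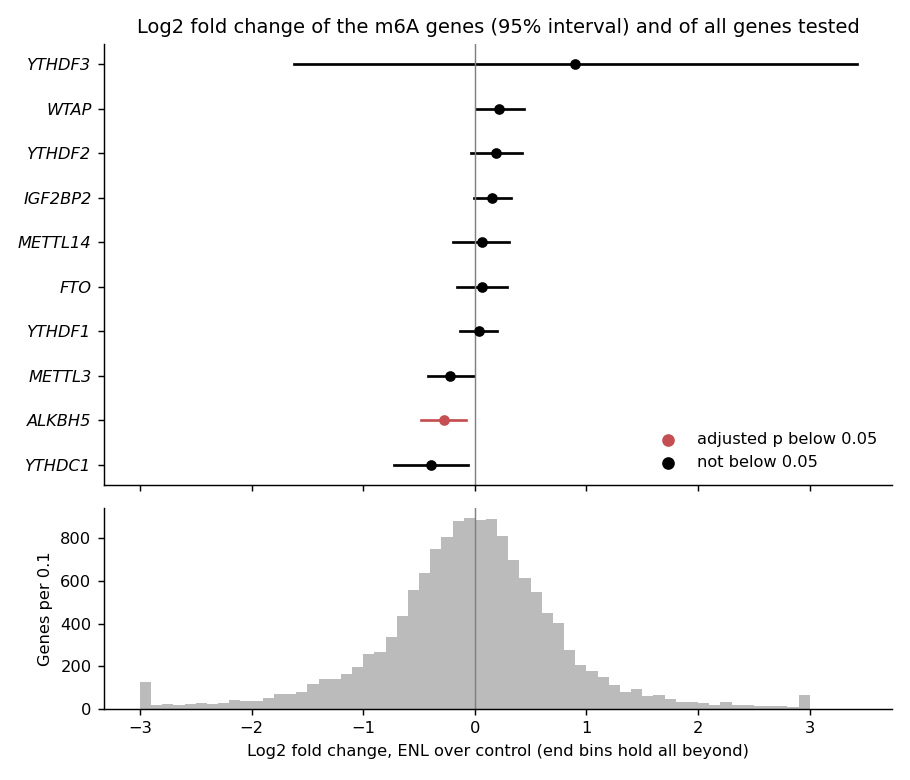
Log2 fold change of ENL over control for the 10 genes with its 95% interval (top) and the number of all 14086 tested genes per 0.1 of log2 fold change (bottom). ALKBH5 alone passed the test, at -0.28, and YTHDF3 had the widest interval, -1.62 to 3.42.

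The differences of the writers ran in both directions, and none passed the test. In bulk RNA, fewer cells with a transcript and less of it per cell cannot be told apart. METTL3, the catalytic subunit (chromosome 14, 21498133 to 21511375, minus strand, GRCh38), had 54.6, 63.7 and 60 CPM in ENL libraries and 68.4, 70.8 and 68.3 CPM in control libraries. All ENL libraries were below all control libraries, by 14% on average, and the log2 fold change of -0.22 ± 0.09 (SE, n = 3 per group; 95% interval -0.42 to -0.01) had an adjusted p of 0.088 in edgeR's test. METTL3 shares 388 exon bases with TOX4 on the opposite strand, whose log2 fold change was 0.13 ± 0.10, and the use of strand in counting was not given in the sources used here. Scaled by upper quartiles or by library totals, METTL3 passed the test (log2 fold change -0.30 and -0.42, edgeR adjusted p = 0.0318 and 0.00975).

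METTL14, the partner that shapes the RNA-binding groove (chromosome 4, 118685368 to 118715433, plus strand), had 18.5, 17.3 and 17.4 CPM in ENL and 18.5, 16 and 16.7 CPM in control. The groups overlapped, and the log2 fold change was 0.06 ± 0.11 (95% interval -0.20 to 0.31, edgeR adjusted p = 0.709). WTAP, the adaptor (chromosome 6, 159725585 to 159756319, plus strand), had 211, 193 and 188 CPM in ENL and 153, 181 and 174 CPM in control. Its ENL libraries were all above its control libraries on the TMM scale, with a log2 fold change of 0.22 ± 0.09 (95% interval 0.01 to 0.44; 0.02 with library totals) that did not pass the test (edgeR adjusted p = 0.0947). WTAP shares 437 exon bases with SOD2 on the opposite strand. SOD2, a mitochondrial superoxide dismutase gene, fell to 373 ± 35.2 CPM in ENL, against 539 ± 40.7 CPM in control (SD, n = 3 each; edgeR adjusted p = 0.00642).

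Of the erasers, ALKBH5 fell and FTO was near its control level. ALKBH5 (chromosome 17, 18183078 to 18209954, plus strand), a nuclear demethylase whose window is shown above, had 99, 102 and 87.2 CPM in ENL and 116, 119 and 115 CPM in control. Every ENL library was below every control library, and the level in ENL was 82.6% of that in control (log2 fold change -0.28 ± 0.08, 95% interval -0.48 to -0.08, edgeR adjusted p = 0.0386). This call was lost without control library 1 (edgeR adjusted p = 0.0977), control library 2 (0.122), control library 3 (0.0991) or ENL library 1 (0.0771), and against a threshold of 1.2-fold (0.389), while the log2 fold change stayed between -0.49 and -0.20 in all 17 other settings. ALKBH5 shares 357 exon bases with the antisense gene AC087164.1, which is not among the genes of the table used here.

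FTO (chromosome 16, 53701692 to 54158512, plus strand), a demethylase first known for its link to body mass, had 50.7, 51.3 and 55.7 CPM in ENL and 51.8, 45.9 and 53.4 CPM in control. Its groups overlapped, and the log2 fold change was 0.06 ± 0.09 (95% interval -0.16 to 0.29, edgeR adjusted p = 0.633). FTO shares 180 exon bases with AC007347.2 on the opposite strand.

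Of the cytoplasmic readers, YTHDF1 and YTHDF2 varied little, and YTHDF3 differed between libraries of the same group. YTHDF1 (chromosome 20, 63195429 to 63216234, minus strand), linked to translation of methylated RNA, had 98.4, 100 and 97.3 CPM in ENL and 94.9, 94.7 and 99.4 CPM in control. The log2 fold change of 0.04 ± 0.07 (95% interval -0.13 to 0.20) was the smallest in size of the 10. YTHDF2 (chromosome 1, 28736621 to 28769775, plus strand), whose product recruits the CCR4-NOT deadenylase to methylated RNA, had 33.7, 33.5 and 37.6 CPM in ENL and 30.6, 28.8 and 32.2 CPM in control. Its ENL libraries were all higher on the TMM scale, with a log2 fold change of 0.19 ± 0.10 (-0.01 with library totals) that did not pass the test (95% interval -0.03 to 0.42, edgeR adjusted p = 0.155).

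YTHDF3 (chromosome 8, 63168553 to 63212786, plus strand), which works with its relatives in decay and translation, had 95.4, 73.9 and 14.3 CPM in ENL and 76.2, 11 and 11.1 CPM in control. ENL libraries 1 and 2 and control library 1 were high, the other libraries were low, and the groups overlapped. The deposited values behind these levels were 6516, 5038 and 1189 units in ENL and 6667, 894 and 942 units in control, far above the size of a counting error. The highest library exceeded the lowest by 6.67-fold within ENL and by 6.91-fold within control, a spread that 99.2% and 99.6% of the 10503 genes with at least 5 CPM on average did not exceed. A spread above 3-fold in both groups was found for 85 of these genes, or 0.809%. The log2 fold change of 0.90 ± 1.02 (95% interval -1.62 to 3.42, edgeR adjusted p = 0.525) therefore leaves the difference of YTHDF3 between the groups undetermined, and it ranged from 0.43 to 2.47 over the other settings. No other gene of GENCODE 29 shares exon bases with YTHDF3, and how reads were assigned to it in each library was not tested.

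**Figure D3:**
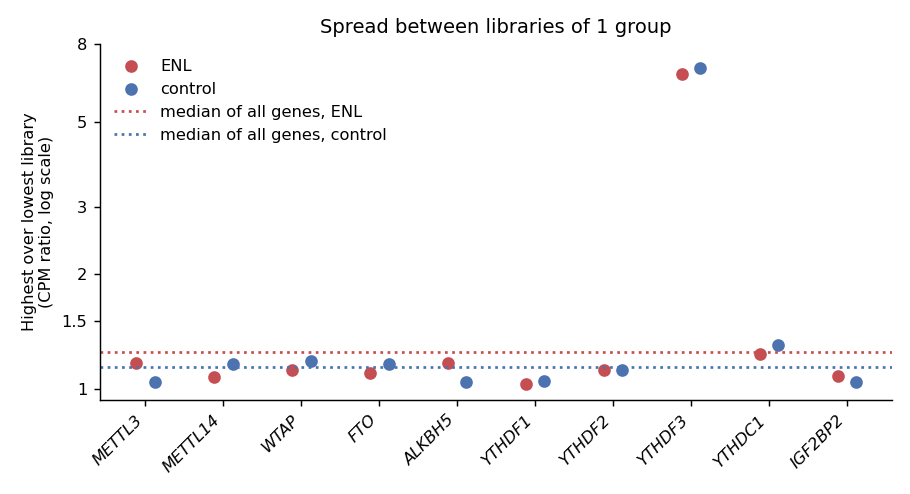
Ratio of the highest to the lowest library within ENL (red) and within control (blue) for the 10 genes, on a log axis, with dotted lines at the medians of all genes with at least 5 CPM on average (1.25 in ENL and 1.14 in control). YTHDF3 stands at 6.67 in ENL and 6.91 in control, and the other members at 1.3 or below.

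YTHDC1 (chromosome 4, 68310387 to 68350089, minus strand), the nuclear reader, had 44.6, 44.7 and 54.9 CPM in ENL and 69, 66.9 and 53 CPM in control. ENL library 3 lay above control library 3, so the groups overlapped. The log2 fold change was the lowest of the 10, -0.39 ± 0.14 (95% interval -0.72 to -0.06), with an adjusted p of 0.0635 in edgeR's test. YTHDC1 passed the test without ENL library 3 (log2 fold change -0.48, edgeR adjusted p = 0.0308) and without control library 3 (-0.50, 0.0389). It also passed with upper-quartile scaling (0.029), library totals (0.0217), a 10 CPM minimum in 3 libraries (0.0453) and the DESeq2 Wald test (0.0426).

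IGF2BP2 (chromosome 3, 185643739 to 185825056, minus strand) had 102, 95.2 and 98.7 CPM in ENL and 90.6, 87 and 88.6 CPM in control. Its ENL libraries were all higher on the TMM scale, by 11% on average, but the log2 fold change of 0.15 ± 0.07 (-0.05 with library totals) did not pass the test (95% interval -0.01 to 0.32, edgeR adjusted p = 0.126). Its paralogue IGF2BP3 was at 44.1, 33.8 and 42.1 CPM in ENL and 47.4, 38.4 and 43.8 CPM in control (log2 fold change -0.11 ± 0.13). IGF2BP3 shares 1521 exon bases with MALSU1 on the opposite strand. IGF2BP1, an oncofetal member of that family, had 5, 0 and 4 units in ENL and 0, 8 and 0 units in control, too few to be tested.

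Per kilobase of the principal transcript in GENCODE 29, WTAP was the most abundant member, at 54 ± 3.2 CPM per kb in ENL and 46.2 ± 3.99 CPM per kb in control (SD, n = 3 each). ALKBH5 came next, at 35 ± 2.9 CPM per kb in ENL and 42.4 ± 0.814 CPM per kb in control. METTL3 was at 29.5 ± 2.29 CPM per kb in ENL and 34.3 ± 0.692 CPM per kb in control, and YTHDF1 at 29.9 ± 0.489 CPM per kb in ENL and 29.2 ± 0.817 CPM per kb in control. METTL3 and YTHDF1 did not differ beyond their spread in ENL, and IGF2BP2 followed at 26.8 ± 0.982 CPM per kb in ENL and 24.1 ± 0.477 CPM per kb in control. YTHDC1 (14.8 ± 1.83 CPM per kb in ENL and 19.4 ± 2.67 in control) and YTHDF2 (11.9 ± 0.788 and 10.4 ± 0.59) lay below these, and YTHDF3, at 25.8 ± 17.7 CPM per kb in ENL and 13.8 ± 15.9 in control, had no fixed place in the order. FTO, at 4.47 ± 0.23 CPM per kb in ENL and 4.28 ± 0.337 in control, and METTL14, at 2.66 ± 0.0981 in ENL and 2.56 ± 0.196 in control, were the lowest. The level per kilobase depends on the transcript used, and with the longest coding transcript YTHDC1 was at 10.1 and YTHDF3 at 6.32 CPM per kb in control.

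Ratios between genes of the same library do not depend on how libraries are scaled. The log2 ratio of METTL14 to METTL3 was -1.56, -1.88 and -1.79 in ENL and -1.89, -2.15 and -2.03 in control, not corrected for transcript length. All ENL values were above all control values, a difference of 0.28 ± 0.12 (SE, n = 3 per group). The log2 ratio of FTO to ALKBH5 was -0.96, -1 and -0.65 in ENL and -1.16, -1.38 and -1.10 in control, a difference of 0.34 ± 0.14 without overlap. The ratio of YTHDF2 to YTHDF1 was higher in ENL by 0.16 ± 0.07 and that of IGF2BP2 to IGF2BP3 by 0.27 ± 0.12 on the log2 scale, again without overlap. Each of these 4 ratios had p = 0.10 in a two-sided exact permutation test, the smallest that 3 against 3 libraries allow, and 0.125 after Benjamini-Hochberg adjustment over 5 ratios. The ratio of YTHDF3 to YTHDF1 overlapped between the groups (difference 1.11 ± 1.27, exact p = 0.30).

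**Figure D4:**
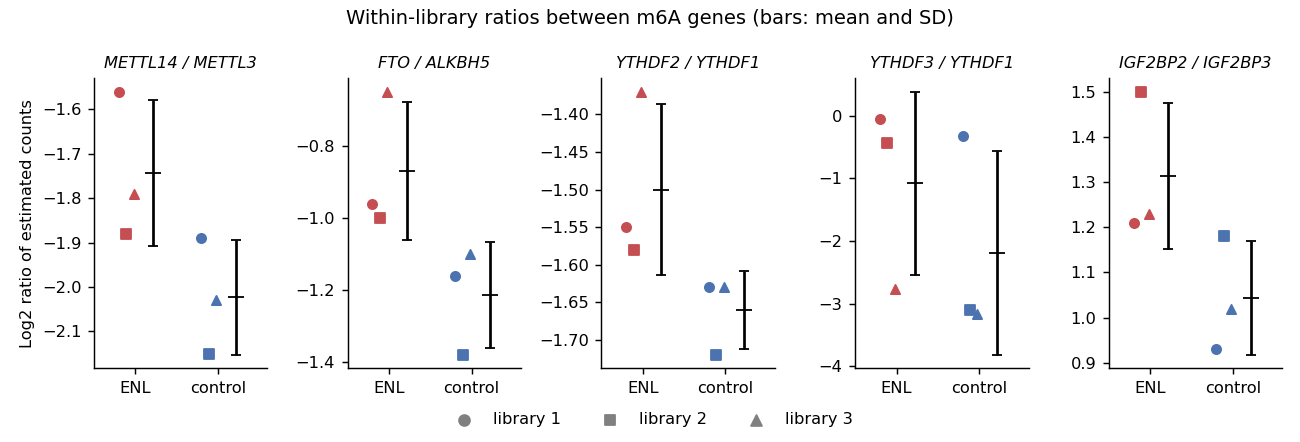
Log2 ratio of the estimated counts of gene pairs within each library, for ENL (red) and control (blue), with the mean and SD as black bars and a separate linear axis per pair. In 4 pairs the ENL libraries lay above the control libraries, and for YTHDF3 over YTHDF1 the groups overlapped.

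Around the 10 members, 51 related genes were read from the same fit, 49 of them tested. Of these, 6 were higher and 9 lower in ENL (12.2% and 18.4%), beside 20% and 18.4% of all genes, with a median log2 fold change of -0.03. The lists were drawn up with earlier results of these data known and are described without a test of the list. Exon bases on the opposite strand are also shared by CBLL1 (333 bases), METTL5 (572), TRMT112 (284), PCIF1 (177), MAT2A (558), MTRR (305 and 100), CNOT1 (1086 and 133), CNOT11 (65), ELAVL1 (528), RBM15 (175), CPSF6 (62) and RBMX (31), and on the same strand by AHCY (139) and RBMX (73), which leaves their values uncertain to that extent.

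Among the other subunits of the writer complex, 1 of 5 was higher and 1 lower, beside 20% and 18.4% of all genes. The median log2 fold change was 0.13. CBLL1, the HAKAI ubiquitin ligase gene, had 49.3, 42.5 and 25.3 CPM in ENL and 17.2, 13.5 and 13.7 CPM in control. All ENL libraries were higher, ENL library 3 less so, and the log2 fold change was 1.40 ± 0.25 (edgeR adjusted p = 0.00603). RBM15B, an RNA-binding subunit gene, fell to 79.2, 87.5 and 86 CPM in ENL, against 121, 122 and 127 CPM in control (-0.55 ± 0.08, edgeR adjusted p = 0.00179), and shares 1325 exon bases with DCAF1 on the opposite strand. VIRMA, the scaffold that directs methylation towards the ends of transcripts, had a log2 fold change of 0.13 ± 0.08 (95% interval -0.07 to 0.33). RBM15 and ZC3H13 did not pass the test (0.59 ± 0.43 and -0.26 ± 0.13), but ZC3H13 did so without ENL library 3 (-0.41, edgeR adjusted p = 0.00533).

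Of the other N6-adenosine methyltransferases and their cofactor, 2 of 6 were higher and 0 lower, beside 20% and 18.4% of all genes. The median log2 fold change was 0.02. PCIF1, which methylates the adenosine next to the cap, rose to 91.1, 86.2 and 81.5 CPM in ENL, against 55.2, 61.3 and 60.9 CPM in control (log2 fold change 0.54 ± 0.09, edgeR adjusted p = 0.00315). TRMT112, the cofactor of the ribosomal RNA enzyme METTL5, rose by 0.61 ± 0.13 on the log2 scale (edgeR adjusted p = 0.0116), while METTL5 itself had a log2 fold change of 0.12 ± 0.12. METTL16, which methylates U6 RNA and hairpins of MAT2A, had 28, 32.6 and 15.2 CPM in ENL and 52.4, 15.6 and 12.1 CPM in control, with a log2 fold change of -0.08 ± 0.62 that leaves its difference undetermined too.

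Of the other readers, 1 of 10 tested was higher and 2 were lower, beside 20% and 18.4% of all genes, with a median of -0.07. HNRNPA2B1, a nuclear RNA-binding protein proposed as an m6A reader, fell to 616, 597 and 610 CPM in ENL, against 1140, 1110 and 1110 CPM in control. The groups were far apart, with a log2 fold change of -0.88 ± 0.07 (edgeR adjusted p = 0.000197). It shares 368 exon bases with CBX3 on the opposite strand. RBMX, whose product binds RNA that methylation has opened, fell by 0.64 ± 0.07 on the log2 scale (edgeR adjusted p = 0.000968), and FXR1, a relative of the fragile X protein, rose by 0.65 ± 0.11 (0.00404). HNRNPC and ELAVL1 did not pass the test (log2 fold changes 0.20 ± 0.13 and -0.02 ± 0.07). YTHDC2 and PRRC2A did not pass it either (-0.32 ± 0.13 and -0.44 ± 0.16), although their groups did not overlap. Both passed with upper-quartile scaling (edgeR adjusted p = 0.0379 and 0.0394) and library totals (0.0287 and 0.0218). YTHDC2 also passed without ENL library 3 (edgeR adjusted p = 0.0464). PRRC2A also passed with the replicate number in the model (edgeR adjusted p = 0.0276) and with the DESeq2 Wald test (adjusted p = 0.0438). FMR1 went the other way without passing (0.60 ± 0.29), and passed without ENL library 2 (0.87, edgeR adjusted p = 0.0069).

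The deadenylation and decay partners held 0 higher and 2 lower genes of 13, beside 20% and 18.4% of all genes, with a median of -0.03. CNOT11 had a log2 fold change of -0.54 ± 0.09 (edgeR adjusted p = 0.00404) and CNOT6, a deadenylase subunit gene, one of -0.48 ± 0.11 (0.0152). The CNOT6 call was lost without control library 1 (edgeR adjusted p = 0.0578), without control library 3 (0.0503) and against a threshold of 1.2-fold (0.0615). The scaffold gene CNOT1, whose product contacts YTHDF2, was level, with 150, 153 and 172 CPM in ENL and 157, 153 and 162 CPM in control.

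Of the genes that make or use S-adenosylmethionine, the methyl donor, 2 of 10 tested were higher and 0 lower. Of all genes, 20% were higher and 18.4% lower, and the median of the list was 0.10. MTRR, methionine synthase reductase, rose by 0.62 ± 0.11 on the log2 scale (edgeR adjusted p = 0.00433), and AHCY, which removes the product of methylation, by 0.37 ± 0.09 (0.0175). The AHCY call was lost in 6 settings, without control library 1 (edgeR adjusted p = 0.0684), without control library 3 (0.0617), without ENL library 1 (0.0545), with upper-quartile scaling (0.0523), with library totals (0.115) and against a threshold of 1.2-fold (0.139). MAT2A, the donor's synthase, had 557, 550 and 681 CPM in ENL and 734, 684 and 741 CPM in control. Its groups did not overlap, but the log2 fold change of -0.27 ± 0.10 did not pass the test (edgeR adjusted p = 0.0784), and did so without ENL library 3 (-0.36, 0.00512), with upper-quartile scaling (-0.36, 0.0288), with library totals (-0.48, 0.0212) and with a 10 CPM minimum in 3 libraries (-0.31, 0.0486).

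The nuclear partners in splicing, polyadenylation and export held 0 higher and 4 lower genes of 5, with a median of -0.85. Of all genes, 20% were higher and 18.4% lower. The list was drawn up with earlier results of these data known, and no test of it was made. CPSF6, a polyadenylation factor, fell to 21.4, 21.3 and 25 CPM in ENL, against 51.8, 53.5 and 53.6 CPM in control (log2 fold change -1.23 ± 0.10, edgeR adjusted p = 0.000212). SRSF3 and SRSF10 encode splicing factors that bind YTHDC1. SRSF3 had a log2 fold change of -0.85 ± 0.10 (edgeR adjusted p = 0.00083). SRSF10 fell to 50.3, 42.7 and 81.8 CPM in ENL, against 120, 110 and 119 CPM in control (edgeR adjusted p = 0.019), and the export receptor gene NXF1 fell by 0.50 ± 0.11 on the log2 scale (0.0115). The SRSF10 call was lost without control library 1 (edgeR adjusted p = 0.0568), control library 3 (0.0588) or ENL library 1 (0.0615). NUDT21, whose product pairs with CPSF6, had a log2 fold change of 0.03 ± 0.11 (95% interval -0.22 to 0.29).

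**Figure D5:**
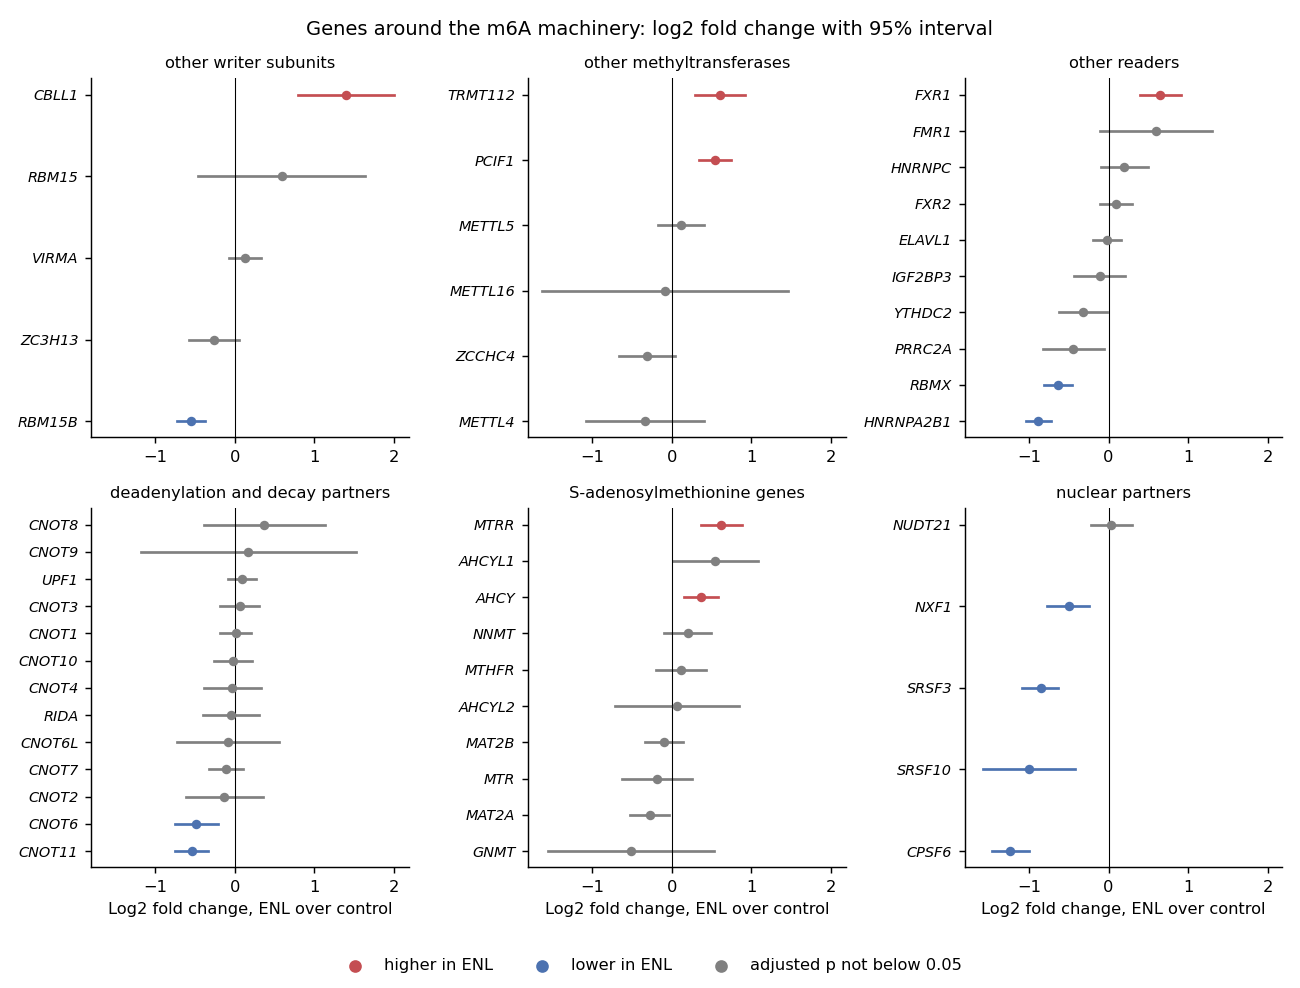
Log2 fold change of ENL over control with its 95% interval for the 49 tested related genes in 6 lists, red where higher, blue where lower and grey where the adjusted p was not below 0.05. CBLL1 was the highest at 1.40 and CPSF6 the lowest at -1.23, and 4 of 5 nuclear partners were lower, beside 18.4% of all genes.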

How the data were processed

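The authors' deposited table holds an estimated count per gene symbol and library, in whole numbers. Per the submitters' processing notes, FastQC, STAR, StringTie, DESeq2 and hg38 were used; their roles and versions, the annotation and the strand setting were not given in the sources used here. Of values from 4 to 43, 70.8% to 73.1% per library were a multiple of 4 or exceeded it by 1. Values spread evenly would also meet this rule often, since it takes in more than 1 of the possible remainders. About 4 units may thus stand for 1 fragment, in which case low values carry more counting error than their size shows. No rounding was needed, and replicates were counted separately, since chi-square per degree of freedom was 20.12 or more within groups.

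The filter was filterByExpr (minimum count 10), the scaling TMM and the test that of edgeR 4.0.16 (glmQLFit, robust, glmQLFTest, two-sided, Benjamini-Hochberg over 14086 genes, threshold 0.05) in R 4.3.3, with the group alone in the model. Standard errors and 95% intervals come from the same fit. Limma 3.58.1 and DESeq2 1.42.0 served as alternatives. Members and lists were chosen with earlier results of these data known. Named were all members, VIRMA, METTL16, IGF2BP1, IGF2BP3, HNRNPA2B1, MAT2A, up to 4 called genes per list and direction, and the members of counts of 5 or fewer. The choice of other related genes printed followed their values. Positions, exon overlaps and lengths come from GENCODE 29 (GRCh38). In 5 simulations with 200 changed genes (13920 to 13935 tested), 1.5-fold changes were recovered in 11.6% of cases and 2-fold changes in 62.2%, while 4.62% of calls were false. Far more genes, 5404, were called in the data, and the simulated spread followed a trend over level, not each gene's own. These shares therefore do not give the recovery of the test in these data.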

Additional observations from a re-analysis of the deposited data

How the results depend on the processing

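In 17 other settings, 157 of 170 values of the 10 members kept their side of the threshold, 5 lost a call (all ALKBH5) and 8 gained one (METTL3 and YTHDC1), and no called value turned its sign; among the 49 related genes 797 of 830 kept theirs, 12 lost and 21 gained a call. The count of members higher in ENL was 0 in every setting. The count lower was 3 with upper-quartile scaling and with library totals alone, 2 with the DESeq2 Wald test and with a 10 CPM minimum in 3 libraries, 0 against a threshold of 1.2-fold, and 0 to 2 with 1 library left out. Over all genes, library totals gave 1804 higher and 3996 lower, the 1.2-fold threshold 1963 and 1713, and leaving out 1 library 2072 to 3156 higher and 1743 to 2877 lower. The scaling sets the direction of small differences: across all genes the median was -0.02 with TMM on the log2 scale, -0.11 with upper quartiles (42.9% of called genes higher, against 52.2%) and -0.23 with library totals (31.1%), and with library totals the values of METTL14, FTO, YTHDF1, YTHDF2 and IGF2BP2 were below 0, METTL14, FTO and YTHDF1 also with upper quartiles. Counts divided by 4, and ribosomal protein and mitochondrially encoded genes left out, both added after seeing the data, left the members at 0 higher and 1 lower. With 1 library left out, the 4 ratios whose groups did not overlap ranged from 0.09 to 0.41. Their sign could not turn, because groups without overlap stay apart when a library is dropped. The ratio of YTHDF3 over YTHDF1 ranged from 0.59 to 2.05. With the replicate block, 2631 genes were higher and 2310 lower, and 0 and 1 members. Same-numbered libraries correlated at 0.04, 0.13 and 0.11 in their deviations from the group means, each best with its own number. These values are low, and ENL library 1 was at 0.02 with control library 2. Pairing was not tested and is not given by the labels. All members were above 10 CPM in every library, and the part of counting error in their intervals was not tested. IGF2BP1 was too low to be tested.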

Other observations

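YTHDF3 was not the only gene around the m6A system whose libraries of 1 group lay far apart. CNOT9, a CCR4-NOT subunit gene, had 51.5, 19.2 and 59.6 CPM in ENL and 26.7, 63.7 and 25.2 CPM in control, a ratio of the highest to the lowest library of 3.1 in ENL and 2.53 in control. METTL16 reached a ratio of 2.15 in ENL and 4.32 in control, and RBM15, at 21.1, 20.7 and 9.84 CPM in ENL and 7.94, 8.6 and 17.8 CPM in control, ratios of 2.15 in ENL and 2.24 in control. METTL16, at 28, 32.6 and 15.2 CPM in ENL and 52.4, 15.6 and 12.1 CPM in control, was high in the same libraries as YTHDF3 (ENL libraries 1 and 2 and control library 1). CNOT9 was high in ENL library 1, as YTHDF3 was, and also in ENL library 3 and control library 2, where YTHDF3 was low. The choice of these genes followed their values.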
